A study of Homo sapiens with 6 samples.

Results

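DEPTOR, a protein that binds the mTOR kinase and inhibits it, was examined together with the core subunits of the mTOR complexes and their nearest upstream regulators in Raji cells. The 10 genes were DEPTOR, MTOR, MLST8, RPTOR, AKT1S1, RICTOR, MAPKAP1, TSC1, TSC2 and RHEB, chosen by name out of 23459 genes in the deposited count table. DEPTOR was picked with its fall in the single comparison available already known, and the other 9 because they form or directly control the complexes it acts on. All values of the 10 genes below are therefore a description of that comparison, and how many of them were called is given only beside the share of all genes called. Raji, an established Burkitt's lymphoma cell line that carries the Epstein-Barr virus, derives from germinal centre B cells. The control group was Raji carrying the lentiviral non-targeting hairpin SHC002, and the other group was Raji carrying OBF1sh1, a lentiviral hairpin against OBF1, the B cell coactivator encoded by POU2AF1. Both groups, called control and knockdown libraries below, had 5 days of infection and then 7 days of selection in puromycin at 3 μg/ml. Each group had 3 libraries of poly(A) RNA. Only 1 hairpin against OBF1 was analysed here, and uninfected cells were not, so effects of the hairpin and of lower OBF1 cannot be told apart.

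mTOR is a protein kinase that works in a pair of complexes. Complex 1 (mTORC1), built on RPTOR, senses amino acids and growth factors at the lysosome and drives protein and lipid synthesis, while complex 2 (mTORC2), built on RICTOR and MAPKAP1, phosphorylates AKT, SGK1 and protein kinase C. MLST8 and DEPTOR belong to both complexes, AKT1S1 (PRAS40) restrains mTORC1, and the TSC1 and TSC2 proteins switch off RHEB, the small GTPase that activates mTORC1. DEPTOR is itself phosphorylated by mTOR and then degraded, and it is known for very high expression in a subset of multiple myelomas, plasma cell tumours.

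POU2AF1, the target of the hairpin, was 2.12-fold lower in the knockdown libraries. Total counts ranged from 29569281 to 32612429 per library. All 9 B lineage markers listed were expressed, summing to 5054 to 5288 CPM (counts scaled to a common library size) in the control and 10844 to 10999 CPM in the knockdown libraries. Most of that difference came from CD74, at means of 2623 and 6674 CPM, and MS4A1, at 702 and 2078 CPM, while CD79A was at 548 and 603 CPM and CD79B at 664 and 610 CPM. Myeloid markers summed to 1.90 to 1.98 and 1.97 to 2.20 CPM, and markers of the 293T cells that packaged the virus to 0.222 to 0.506 and 0.0638 to 0.0984 CPM. Markers of T and NK cells summed to 27.0 to 28.5 and 51.2 to 52.2 CPM, nearly all from IL7R and LCK, with 6 of 9 genes below 0.1 CPM in both group means and CD3D, CD2 and GNLY at 0 counts in every library. Erythroid and stromal markers summed to 2.60 to 2.72 and 31.6 to 32.8 CPM, nearly all from COL1A1, with the other 6 of 7 genes below 0.1 CPM in both group means and HBA1 and HBB at 0 counts. The part of these marker differences in the results below was not tested.

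DEPTOR mRNA nearly disappeared from cells with the OBF1 hairpin. The control libraries held 932, 1043 and 1010 DEPTOR counts and the knockdown libraries 64, 62 and 78. Scaled for library size and composition, this was 29.8, 31.0 and 32.1 CPM against 2.25, 2.03 and 2.49 CPM. The lowest control library stood more than 10 times above the highest knockdown library, and the replicates within each group lay close together. The log2 fold change was -3.77 (SE 0.08), a 13.7-fold reduction. Among the 9626 genes that averaged 5 CPM or more, only 3 fell further, and over all 12010 genes tested 99.3% changed by less or as much. In bulk RNA, fewer cells that express DEPTOR and less DEPTOR RNA per cell cannot be told apart.

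**Figure D1:**
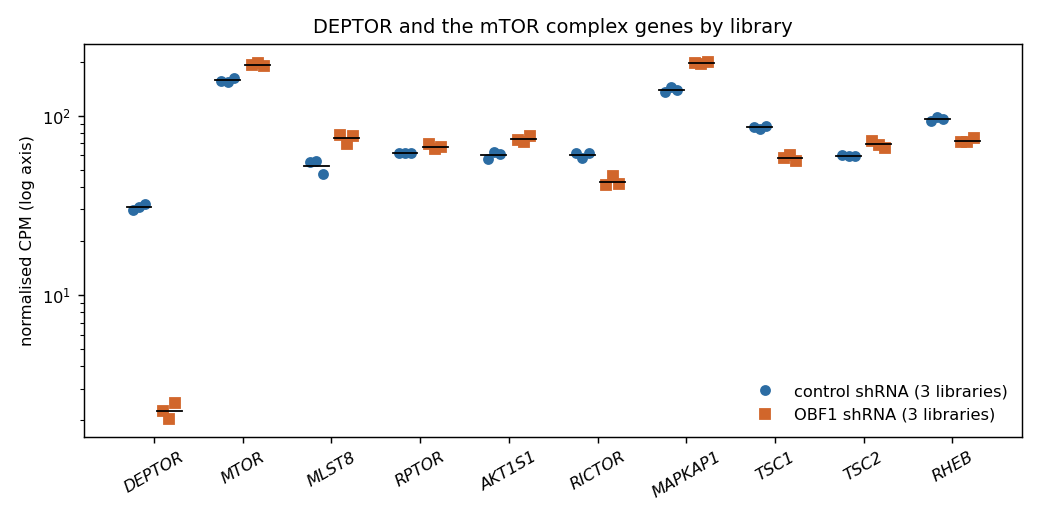
Normalised CPM on a log axis for the 10 genes in each of the 6 libraries (circles, control shRNA; squares, OBF1 shRNA), with a black line at each group mean. DEPTOR fell from about 31.0 to 2.26 CPM, while every other gene stayed within a 1.5-fold change under this TMM scaling (with library sizes alone TSC1 and RICTOR did not).

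The other 9 genes changed by less than 1.5-fold, although all were called. TSC1 and RICTOR passed that fold with library sizes alone, at log2 fold changes of -0.68 and -0.61, and TSC1 did without knockdown replicate 2, at -0.59. All 10 passed the count filter and all 10 had an adjusted p under 0.05 in edgeR's quasi-likelihood fit over all genes, 6 higher and 4 lower. The background was high: 75.4% of all tested genes were called, 37.5% as higher and 37.9% as lower. The library values of the groups did not overlap for any of the 10, which held for 76.6% of all tested genes. A called change of at least 1.5-fold was seen for 23.3% of tested genes and, among the 10, for DEPTOR alone. The median absolute log2 fold change over all tested genes was 0.29, and the share of genes with a change as small or smaller ran from 19.98% for RPTOR to 75.1% for TSC1.

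The shared catalytic core was modestly higher. MTOR, the kinase itself, measured 156, 154 and 162 CPM in control libraries and 192, 195 and 190 CPM in knockdown libraries. Every knockdown library was above every control library, and the log2 fold change was 0.29 (SE 0.03). MLST8, the small WD-repeat subunit that binds the kinase domain, measured 54.8, 55.7 and 47.4 CPM against 78.0, 69.4 and 77.0 CPM. Its log2 fold change was 0.51 (SE 0.05), and control replicate 3 was the low library of its group. Without that library the MLST8 change was 0.44.

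The subunits particular to mTORC1 were slightly higher. RPTOR, the scaffold that recruits substrates, measured 62.2, 61.8 and 62.0 CPM in control libraries and 69.4, 64.7 and 66.5 CPM in knockdown libraries. This was the smallest change of the 10, with a log2 fold change of 0.11 (SE 0.04). It depended on scaling: with library sizes alone and no composition factor it was -0.0016, and it lost its call there and also without knockdown replicate 1, where it was 0.08. AKT1S1, the PRAS40 inhibitor of mTORC1, measured 57.0, 62.3 and 61.3 CPM against 72.9, 71.3 and 77.3 CPM. Its log2 fold change was 0.29 (SE 0.04), close to that of MTOR. The span of AKT1S1 overlaps that of TBC1D17 in the gene table, which had a log2 fold change of 0.69 at 13.01 against 20.9 CPM. Shared reads of overlapping genes cannot be assigned from the table.

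The subunits particular to mTORC2 moved in opposite directions. RICTOR, its scaffold, measured 61.9, 58.1 and 61.7 CPM in control libraries and 40.8, 46.2 and 41.6 CPM in knockdown libraries, a log2 fold change of -0.50 (SE 0.05). MAPKAP1, which encodes the substrate-binding subunit SIN1, measured 135, 144 and 139 CPM against 197, 194 and 199 CPM, a log2 fold change of 0.50 (SE 0.03). In neither subunit did the groups overlap. With library sizes alone the changes were -0.61 for RICTOR and 0.39 for MAPKAP1. Per gene length, the ratio of MAPKAP1 to RICTOR was 5.03 ± 0.343 (SD, n = 3) in control and 10.1 ± 0.774 (SD, n = 3) in knockdown libraries. The ratio of RPTOR to RICTOR, the scaffolds of the pair of complexes, was 1.62 ± 0.0542 and 2.48 ± 0.243 (SD, n = 3 each).

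Upstream, TSC1 and RHEB were lower and TSC2 was higher. TSC1, which stabilises the complex that restrains RHEB, measured 86.4, 84.0 and 87.3 CPM in control libraries and 58.2, 60.3 and 55.5 CPM in knockdown libraries. Its log2 fold change of -0.57 (SE 0.04) was the largest fall of the 10 after DEPTOR. TSC2, the subunit that makes RHEB hydrolyse GTP, measured 60.2, 59.6 and 59.8 CPM against 72.3, 68.8 and 66.0 CPM, a log2 fold change of 0.21 (SE 0.04). The span of TSC2 overlaps that of PKD1, which had a log2 fold change of -0.09 at 142 against 133 CPM. Reads shared by TSC2 and PKD1 cannot be assigned here either. RHEB, the GTPase that turns mTORC1 on, measured 93.5, 97.6 and 96.2 CPM against 71.4, 70.8 and 75.1 CPM, a log2 fold change of -0.40 (SE 0.03). The inhibitor TSC1 and the activator RHEB therefore both fell. Per gene length, the ratio of TSC1 to TSC2 was 1.07 ± 0.0192 in control and 0.628 ± 0.0269 in knockdown libraries (SD, n = 3 each), with no overlap between libraries of the groups.

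**Figure D2:**
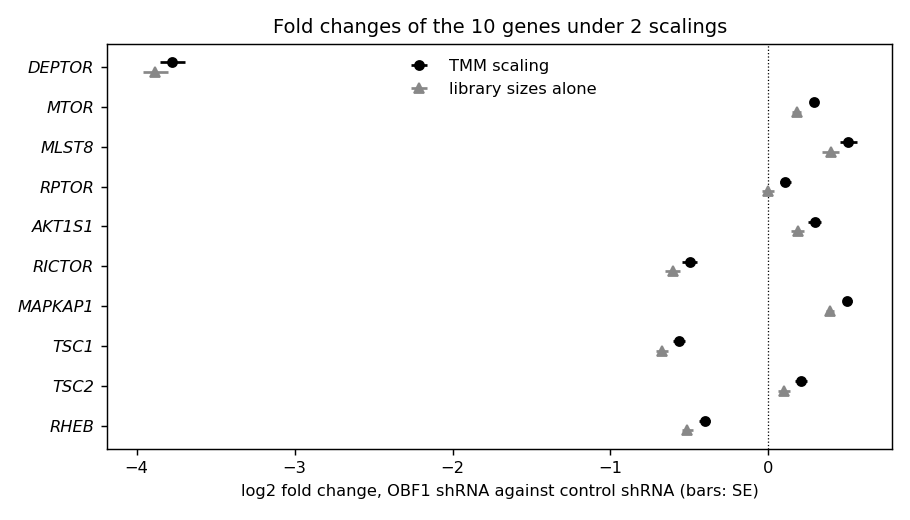
Log2 fold change of OBF1 shRNA against control shRNA for the 10 genes with standard errors, under TMM scaling (black circles) and with library sizes alone (grey triangles). Library sizes alone shifted every value by about -0.11, which moved RPTOR from 0.11 to -0.0016 and left the other 9 on the same side of 0.

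The promoters of the TSC pair are shown because these partners of 1 complex moved in opposite directions. Promoter sequences came from RefSeq on build GRCh38.p14, where 7 of the 10 genes had an entry. DEPTOR, MLST8 and AKT1S1 had no entry, so their promoters were not searched. The 250 bases before the annotated start were searched on both strands for the octamer ATGCAAAT, which Oct factors and OBF1 bind, for the E-box CACGTG, which MYC and TFEB bind, and for TGATGNAA, a form of the ATF4 response element. Capitals mark matches. The TSC1 window lies on the minus strand at chr9:132944617-132944866, and the TSC2 window, before the more upstream of 2 annotated starts, on the plus strand at chr16:2047735-2047984.
TSC1: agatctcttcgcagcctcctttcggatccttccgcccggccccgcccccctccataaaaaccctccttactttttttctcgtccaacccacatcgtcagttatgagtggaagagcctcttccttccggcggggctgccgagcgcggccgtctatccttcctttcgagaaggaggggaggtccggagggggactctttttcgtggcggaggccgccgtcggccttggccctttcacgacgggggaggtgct
TSC2: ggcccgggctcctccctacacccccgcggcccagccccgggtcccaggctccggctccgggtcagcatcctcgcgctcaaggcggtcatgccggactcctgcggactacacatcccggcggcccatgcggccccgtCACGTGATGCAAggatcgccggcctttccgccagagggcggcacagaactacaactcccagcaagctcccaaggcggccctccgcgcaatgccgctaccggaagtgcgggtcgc
The TSC2 window held an E-box from 114 to 109 bases before the start and an overlapping TGATGCAA from 110 to 103 bases before it. The TSC1 window held none of the 3 motifs, and neither did the window before the other TSC2 start. None of the 8 windows of the 7 genes held the octamer. Of 35116 RefSeq windows of this length, 1.63% held the octamer, 6.34% the E-box and 3.14% the ATF4 form, and TSC2 was the only one of the 7 genes with either of the last 2.

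Per gene length, DEPTOR went from the middle of the 10 genes to the bottom. Levels were taken as RPKM, the CPM divided by the deposited gene length in kilobases. How that length was defined was not given in the sources used here, and the order and ratios between genes rest on it. In control libraries DEPTOR stood at 11.8 ± 0.423 RPKM (SD, n = 3), below MTOR at 16.6 ± 0.403 and above TSC1 at 8.84 ± 0.177. In knockdown libraries it stood at 0.858 ± 0.0866 RPKM (SD, n = 3), below RICTOR at 3.62 ± 0.248. The DEPTOR to MTOR ratio per length was 0.689, 0.726 and 0.716 in the control libraries and 0.0424, 0.0376 and 0.0473 in the knockdown libraries. There was thus about 1 DEPTOR transcript per length for less than 2 of MTOR in control, and about 1 for 20 or more in knockdown libraries.

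The order of the other levels also differed at the top. In control libraries RHEB was highest at 46.1 ± 1.004 RPKM (SD, n = 3), followed by MAPKAP1 at 25.7 ± 0.846, AKT1S1 at 20.002 ± 0.943, MLST8 at 18.4 ± 1.59 and MTOR, and after DEPTOR and TSC1 came RPTOR at 8.29, TSC2 at 8.25 and RICTOR at 5.12 RPKM. AKT1S1 and MLST8, MLST8 and MTOR, and RPTOR and TSC2 overlapped in their library values, while the other 6 of 9 neighbouring pairs in this order did not. In knockdown libraries MAPKAP1 at 36.4 ± 0.460 and RHEB at 34.9 ± 1.12 RPKM (SD, n = 3) overlapped at the top, as did MLST8 at 26.1 with AKT1S1 at 24.5 and TSC2 at 9.51 with RPTOR at 8.93 RPKM. MTOR stood between these pairs at 20.2 RPKM, and TSC1 at 5.97 RPKM came next above RICTOR. The per-length ratio of RHEB to MTOR was 2.79 ± 0.0950 in control and 1.72 ± 0.0780 in knockdown libraries (SD, n = 3 each).

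**Figure D3:**
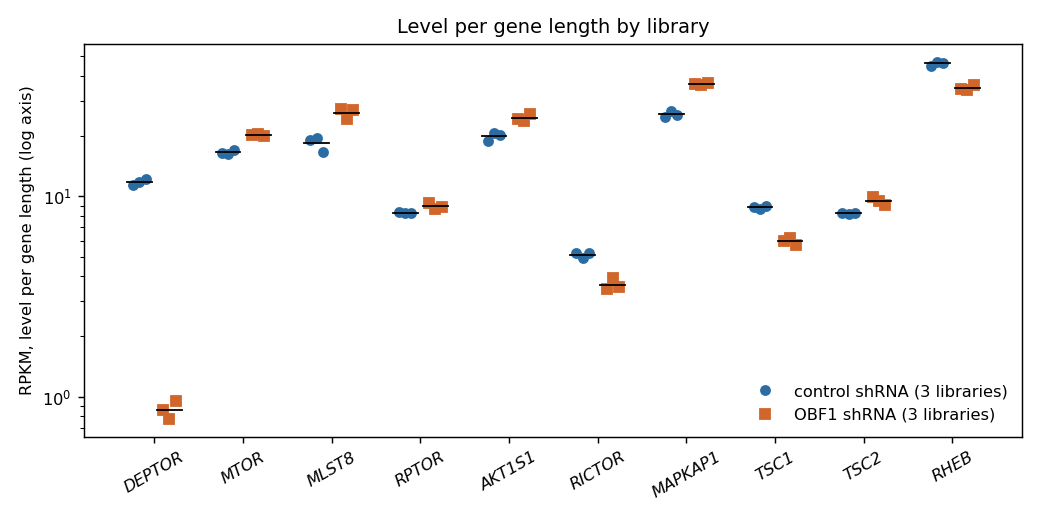
RPKM on a log axis for the 10 genes in each library (circles, control shRNA; squares, OBF1 shRNA; black lines, group means). Comparison of levels between genes rests on the deposited gene lengths. DEPTOR stood at 11.8 RPKM in control, above TSC1, RPTOR, TSC2 and RICTOR, and at 0.858 RPKM in knockdown libraries, below all of them.

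The neighbours of DEPTOR on chromosome 8 that passed the count filter fell by less than 1.5-fold or were not called. Of the 5 protein-coding genes on each side, 4 were tested, and 3 of these were lower and 0 higher. Over all tested genes 37.9% were lower. DSCC1, a cohesion factor gene and the nearest on one side, measured 62.8, 63.3 and 63.7 CPM in control libraries and 49.0, 54.7 and 52.6 CPM in knockdown libraries (log2 fold change -0.28, edgeR adjusted p = 6.46e-06). MTBP, an MDM2-binding protein gene, measured 20.01, 18.3 and 19.8 against 14.6, 13.8 and 14.04 CPM (log2 fold change -0.46, edgeR adjusted p = 1.75e-06). TAF2, of the general transcription factor TFIID, had a log2 fold change of -0.10 (edgeR adjusted p = 0.00919), a call lost without control replicate 3 or without knockdown replicate 3 (edgeR adjusted p = 0.0501 and 0.0649). MRPL13, a mitochondrial ribosomal protein gene, had a log2 fold change of -0.03 (edgeR adjusted p = 0.483). It was called lower, at -0.14, with library sizes alone. COL14A1, the nearest on the other side, had 9, 2 and 6 counts in control and 0 in each knockdown library. It did not pass the count filter, and without that filter it was called lower (edgeR adjusted p = 0.000212), so that 4 neighbours were lower there. These counts are too few to give the size of its fall. MAL2, CCN3, ENPP2, SNTB1 and HAS2 had at most 3 counts in any library.

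**Figure D4:**
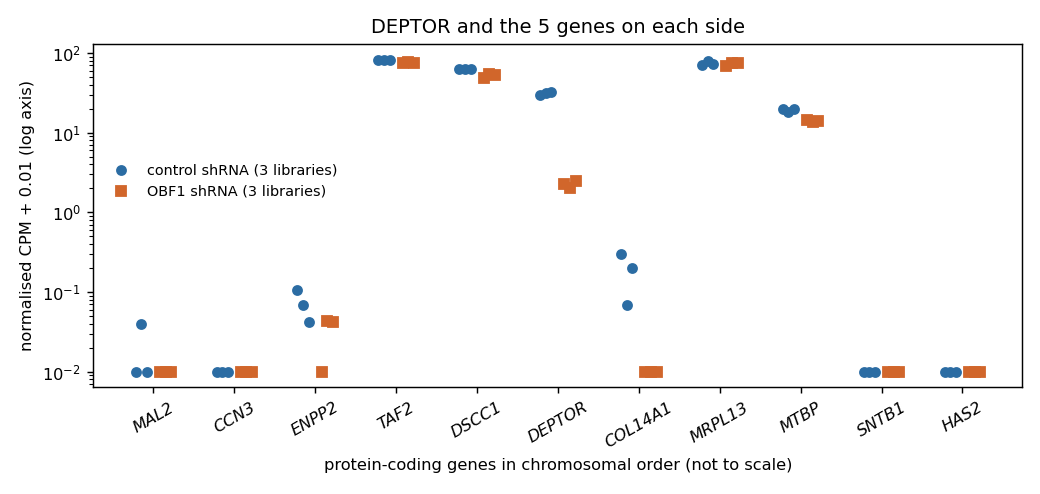
Normalised CPM plus 0.01 on a log axis for DEPTOR and the 5 protein-coding genes on each side, in chromosomal order but not to scale (circles, control shRNA; squares, OBF1 shRNA; 3 libraries each). On this axis the expressed neighbours TAF2, DSCC1, MRPL13 and MTBP lay at similar heights in both groups, while DEPTOR lay at 31.0 and 2.26 CPM. TAF2, DSCC1 and MTBP were nevertheless called lower, each by less than 1.5-fold.

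The 5 genes whose profile over the 6 libraries was most like that of DEPTOR came from unrelated families. Likeness was the root mean square difference between log2(CPM + 1) values, each centred on its gene's mean, among 10980 candidates averaging 1 CPM or more. They were GPR158, an orphan receptor, at a difference of 0.0898, PLOD2, a collagen lysyl hydroxylase, at 0.119, the transcription factor gene SOX5 at 0.188, the synaptic gene RIMS2 at 0.225 and the mitochondrial dehydrogenase gene GPD2 at 0.239. GPR158 had 292, 340 and 306 counts in control and 0, 2 and 1 counts in knockdown libraries. On this scale values near 0 CPM are compressed, so a gene lost almost fully and DEPTOR can look alike. The measure rests on the same comparison that chose DEPTOR and is a description.

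The other genes of the pathway were read from 11 lists of 132 genes. EIF4A1 was not analysed here. Of the other 131, 115 passed the count filter, and 55 were called higher, 35 lower and 25 not called. The share called, 78.3%, was near the 75.4% of all tested genes, and the median log2 fold change was 0.08 against -0.01 over all tested genes. The counts of each list below stand beside that 75.4%, with 37.5% of all tested genes higher and 37.9% lower. The balance of directions moved with the scaling: under library sizes alone 45 were higher and 50 lower, while over all genes the counts went from 4508 higher and 4550 lower to 3476 and 5778.

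**Figure D5:**
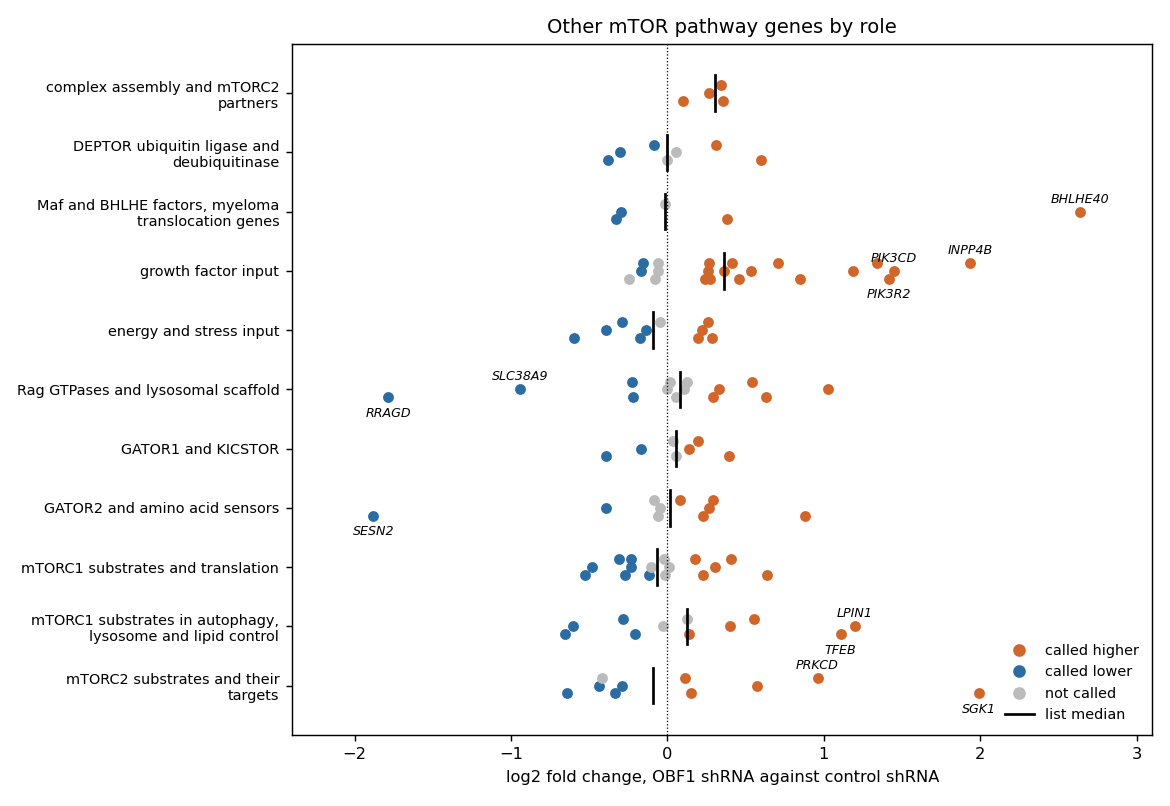
Log2 fold change of OBF1 shRNA against control shRNA for the 115 tested pathway genes, 1 point per gene, in 11 lists by role, with a black line at each list's median and names on the genes described in the text that lie furthest from 0. Most points lie within 1 log2 unit of 0, while BHLHE40, SGK1 and INPP4B lie furthest to the right and SESN2 and RRAGD furthest to the left.

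Factors that assemble the complexes, listed with partners of mTORC2, were higher in all 4 of 4 tested, where 37.5% of all tested genes were higher. TELO2, a chaperone partner for kinases of the mTOR type, measured 42.0 ± 3.45 CPM in control libraries and 53.2 ± 4.13 CPM in knockdown libraries (SD, n = 3, edgeR adjusted p = 3.68e-05). Its partner TTI2 measured 19.8 ± 0.854 and 23.8 ± 0.409 CPM (SD, n = 3, edgeR adjusted p = 0.000182). PRR5, the mTORC2 partner protor, measured 3.19 ± 0.347 and 4.09 ± 0.0408 CPM (SD, n = 3, edgeR adjusted p = 0.0103). PRR5 lost its call with library sizes alone, with DESeq2 (adjusted p = 0.0509) and without control replicate 3 (edgeR adjusted p = 0.0541). With library sizes alone 2 of these 4 genes were called, both higher.

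Genes that control the stability of DEPTOR protein were mixed, with 2 higher, 3 lower and 2 not called of 7. BTRC, which encodes the β-TrCP receptor that marks phosphorylated DEPTOR for degradation, measured 44.3, 43.4 and 44.8 CPM in control libraries and 32.6, 34.6 and 34.3 CPM in knockdown libraries (log2 fold change -0.38, edgeR adjusted p = 1.65e-07). RBX1, the ring subunit of the same ubiquitin ligase, was 1.24-fold higher (edgeR adjusted p = 3.11e-07). OTUB1, a deubiquitinase that protects DEPTOR, measured 66.6, 64.3 and 64.3 against 102, 93.4 and 100.3 CPM (log2 fold change 0.60, edgeR adjusted p = 6.56e-11). CSNK1A1, the casein kinase that primes DEPTOR for the ligase and a gene named after its values were seen, had a log2 fold change of -0.31 (edgeR adjusted p = 1.18e-08).

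Transcription factors and translocation genes known from myelomas, together with BHLHE40 and its relative BHLHE41, gave 2 higher, 2 lower and 1 not called of 5 tested. MAF, BHLHE41 and FGFR3 had 0 counts in all 6 libraries and were not detectable in either group at this depth. MAFG, a small Maf factor, measured 66.5 ± 2.22 CPM in control libraries and 52.8 ± 1.21 CPM in knockdown libraries (SD, n = 3, edgeR adjusted p = 3.30e-07). MAFF, another small Maf gene, measured 2.03 ± 0.130 and 2.65 ± 0.0375 CPM (SD, n = 3, edgeR adjusted p = 0.0171). Its call was lost with library sizes alone, with DESeq2 (adjusted p = 0.0907) and without control replicate 1 (edgeR adjusted p = 0.0528). BHLHE40, a stress-responsive repressor also called DEC1, rose from 0.768, 0.536 and 0.889 CPM to 4.71, 4.33 and 4.56 CPM (log2 fold change 2.63, SE 0.16, edgeR adjusted p = 7.23e-11). It had the largest change of all pathway genes tested.

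The growth factor input through phosphoinositide 3-kinase (PI3K) gave 15 higher and 2 lower of 21 tested, where 37.5% of all tested genes were higher, with a median log2 fold change of 0.36. PIK3CD, the leukocyte catalytic subunit, rose from 153, 150 and 154 CPM to 422, 410 and 413 CPM, a 2.73-fold gain (edgeR adjusted p = 7.67e-19). PIK3R2, a regulatory subunit, rose 2.66-fold, with 441 ± 11.4 CPM in control and 1174 ± 35.1 CPM in knockdown (SD, n = 3; edgeR adjusted p = 3.24e-18). INPP4B, a phosphatase that removes a PI3K product, measured 1.01 ± 0.0748 CPM and rose to 3.85 ± 0.388 CPM (n = 3, SD; edgeR adjusted p = 2.25e-09). The risers thus included kinase subunits as well as a phosphatase. INPP5D, the SHIP1 phosphatase, rose by 0.85 on the log2 scale (edgeR adjusted p = 1.91e-15) and TBC1D7, the third subunit of the TSC complex, by 0.71 (edgeR adjusted p = 4.10e-07). Both were named after their values were seen. With library sizes alone the list held 15 higher and 5 lower genes. The kinase genes AKT1 and AKT2, also named afterwards, rose by 0.26 and 0.41 (edgeR adjusted p = 3.39e-07 and 7.65e-10).

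Energy and stress inputs divided into 4 higher and 5 lower of 10 tested, where 37.5% of all tested genes were higher and 37.9% lower. DDIT4, the REDD1 protein that restrains mTORC1 under stress, fell from 50.8, 56.2 and 50.2 CPM to 33.7, 32.1 and 38.4 CPM (log2 fold change -0.59, edgeR adjusted p = 4.13e-08). PRKAB2, a subunit of the energy sensor AMPK, fell by 0.39 (edgeR adjusted p = 1.66e-07) and CAB39, a scaffold of the upstream kinase LKB1, by 0.29 (edgeR adjusted p = 3.73e-08). STK11, which encodes LKB1, and its partner STRADA rose by 0.26 and 0.29, and the AMPK subunit genes PRKAA1 and PRKAG1 by 0.22 and 0.19. These 4 higher genes of the list were named after their values were seen. With library sizes alone 3 genes of the list were higher and 6 lower. TRIB3, DDIT4L and PRKAA2 had 0 counts in all libraries.

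At the lysosome, the Rag GTPases and their scaffold gave 5 higher and 4 lower of 14 tested, and 5 with library sizes alone in each direction. SLC38A9, the lysosomal arginine sensor that activates the Rag GTPases, fell from 35.2, 34.4 and 34.3 CPM to 18.0, 18.1 and 18.0 CPM (log2 fold change -0.94, edgeR adjusted p = 2.48e-12). RRAGD, the least expressed Rag gene by CPM, fell from 2.27, 1.43 and 1.97 CPM to 0.493, 0.755 and 0.383 CPM (log2 fold change -1.78, edgeR adjusted p = 5.13e-06). LAMTOR4, a subunit of the Ragulator scaffold, rose from 57.7, 56.4 and 53.5 CPM to 90.8, 81.3 and 87.3 CPM (log2 fold change 0.63, edgeR adjusted p = 2.15e-10). RRAGC, named after its values were seen, measured a log2 fold change of -0.01 (edgeR adjusted p = 0.885).

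Genes of GATOR1, the complex that switches the Rag GTPases off, and of its anchor KICSTOR all differed by less than 1.5-fold, with 3 higher and 2 lower of 7. KPTN of KICSTOR measured a log2 fold change of 0.39 (edgeR adjusted p = 0.000211) and KICS2 of the same complex -0.39 (edgeR adjusted p = 1.58e-06). NPRL3 of GATOR1 had a log2 fold change of 0.20 (edgeR adjusted p = 0.00066). Library sizes alone ended that call (edgeR adjusted p = 0.0842), and there 1 gene of the list was higher and 2 lower. The amino acid sensors and GATOR2, which counters GATOR1, gave 5 higher and 2 lower of 10 tested. SESN2, the stress-induced leucine sensor that holds GATOR2 back, fell from 130, 138 and 135 CPM to 36.2, 35.6 and 37.6 CPM, a 3.68-fold reduction (edgeR adjusted p = 2.35e-18). CASTOR1, the arginine sensor that likewise holds GATOR2 back, rose from 6.34, 4.52 and 5.33 CPM to 10.1, 10.3 and 9.42 CPM (log2 fold change 0.88, edgeR adjusted p = 3.18e-07). SAMTOR, the S-adenosylmethionine sensor, fell by 0.39 (edgeR adjusted p = 0.000134). With library sizes alone 4 genes of the list were higher and 5 lower. SESN1 and SESN3, relatives of SESN2 named after their values were seen, had log2 fold changes of -0.06 and -0.09 (edgeR adjusted p = 0.233 and 0.111).

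Substrates of mTORC1 in translation, listed with targets of those substrates and other translation factors, divided into 5 higher and 7 lower of 16 tested. With library sizes alone the list held 5 higher and 11 lower genes. RPS6KB2, encoding the S6 kinase S6K2, rose from 24.2, 25.5 and 24.5 CPM to 39.4, 38.4 and 37.7 CPM (log2 fold change 0.64, edgeR adjusted p = 3.66e-10). RPS6KB1, encoding S6K1 and named after its values were seen, had a log2 fold change of -0.23 (edgeR adjusted p = 4.27e-06). LARP1, which represses mRNAs of the translation machinery, measured 760.3 ± 9.37 CPM and fell to 545 ± 7.49 CPM (n = 3, SD; edgeR adjusted p = 2.40e-12). EIF4EBP3, a translation repressor of the 4E-BP family whose gene also forms a joint transcript with its neighbour ANKHD1 and whose value is therefore uncertain, fell by 0.53 (edgeR adjusted p = 3.21e-06). Its relatives EIF4EBP1 and EIF4EBP2, named afterwards, measured -0.11 and 0.23 on the log2 scale (edgeR adjusted p = 0.146 and 2.39e-07).

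Substrates in autophagy, lysosome and lipid control, listed with partners and downstream factors, gave 5 higher and 4 lower of 11 tested. With library sizes alone the list held 4 higher and 5 lower genes. TFEB, the transcription factor of lysosome genes that mTORC1 keeps out of the nucleus, rose from 65.1, 66.8 and 60.8 CPM to 139, 135 and 142 CPM (log2 fold change 1.11, edgeR adjusted p = 5.22e-15). LPIN1, the phosphatidate phosphatase lipin 1, measured 20.1 ± 1.06 CPM and rose to 46.2 ± 2.00 CPM (n = 3, SD; edgeR adjusted p = 2.19e-13). ATG14, of the autophagy lipid kinase complex, fell by 0.66 (edgeR adjusted p = 1.10e-08). RB1CC1 (FIP200) and ATG13, partners of the ULK kinases in starting autophagy and named after their values were seen, fell by 0.61 and 0.28 (edgeR adjusted p = 4.45e-12 and 1.90e-07). Other autophagy genes of the list, also named afterwards, were mixed. UVRAG rose by 0.40 (edgeR adjusted p = 6.77e-09), ATG101 fell by 0.21 (edgeR adjusted p = 0.0007) and ULK1 was not called at 0.12 (edgeR adjusted p = 0.0891). TFE3, the relative of TFEB, likewise named afterwards, had a log2 fold change of -0.03 (edgeR adjusted p = 0.509).

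Kinases that mTORC2 phosphorylates, with targets of those kinases, gave 5 higher and 4 lower of 10 tested, or 3 and 4 with library sizes alone. Of all tested genes 37.5% were higher and 37.9% lower. SGK1 rose from 8.90, 9.37 and 8.35 CPM to 35.9, 34.7 and 35.2 CPM, a 3.97-fold gain (edgeR adjusted p = 7.00e-16). Its relatives SGK3 and SGK2, named after their values were seen, did not rise. SGK3 had a log2 fold change of -0.34 (edgeR adjusted p = 0.000193), and SGK2 was not called at -0.42 (edgeR adjusted p = 0.122). PRKCD, a protein kinase C with a role in B cell tolerance, rose 1.94-fold (edgeR adjusted p = 1.29e-14). FOXO1, a transcription factor inactivated by AKT and SGK1, was 1.56-fold lower (edgeR adjusted p = 2.88e-12). FOXO3 and FOXO4, named after their values were seen, fell by 0.44 and 0.29 (edgeR adjusted p = 1.68e-08 and 0.00184).

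Of the 111 pathway genes with a RefSeq promoter entry, PRKCB and SREBF2 held the octamer in the 250 bases before a start, and these windows are shown because the octamer is the site that OBF1 recognises with Oct factors. PRKCB encodes the protein kinase C that carries B cell receptor signals, and SREBF2 the main activator of cholesterol synthesis genes. Both windows are on the plus strand of GRCh38.p14, PRKCB at chr16:23835733-23835982 and SREBF2 at chr22:41832855-41833104, with the octamer in capitals.
PRKCB: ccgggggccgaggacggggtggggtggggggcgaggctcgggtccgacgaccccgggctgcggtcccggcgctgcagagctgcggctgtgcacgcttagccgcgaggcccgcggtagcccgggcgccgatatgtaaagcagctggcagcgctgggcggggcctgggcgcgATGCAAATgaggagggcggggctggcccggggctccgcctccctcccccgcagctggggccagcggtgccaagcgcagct
SREBF2: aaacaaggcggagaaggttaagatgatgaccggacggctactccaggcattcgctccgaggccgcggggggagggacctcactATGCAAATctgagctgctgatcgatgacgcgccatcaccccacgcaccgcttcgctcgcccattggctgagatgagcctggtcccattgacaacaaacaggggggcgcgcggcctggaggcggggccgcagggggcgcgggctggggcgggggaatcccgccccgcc
The octamer lay 80 to 73 bases before the PRKCB start and 167 to 160 bases before the SREBF2 start. Both genes, named for this match, were higher in OBF1 shRNA cells. PRKCB rose by 0.57 on the log2 scale (edgeR adjusted p = 6.72e-13). SREBF2 rose by 0.13 (edgeR adjusted p = 4.73e-05), a change about as large as the shift between scalings. The 2 windows are 1.10% of the 181 pathway windows, against 1.63% of all RefSeq windows. The E-box lay in 21 pathway windows, 11.6% against 6.34% of all RefSeq windows. The ATF4 form lay in 2, 1.10% against 3.14%. These differences in share were not tested. A match is a description of letters and not of binding.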

How the data were processed

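The authors deposited 1 table of raw read counts per gene for 6 libraries with a column of gene lengths. Per the labels' protocols the libraries were stranded and poly(A)-selected. The submitters' processing notes name hg19 and mm9 as builds, for human samples. Aligner, counter, annotation and strand setting were not given in the sources used here, so overlapping and near-identical genes are uncertain. Rows were named by numeric gene identifiers; 23308 of 23459 matched a RefSeq gene table (GRCh38.p14), which gave symbols and gene order. All 6 count columns matched a sample title, so 0 stayed unused. The 151 rows without a symbol carried 0.115% to 0.138% of counts and were kept.

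The analysis ran in edgeR 4.0.16 under R 4.3.3: filterByExpr (minimum count 10, minimum total 15; 12010 genes), TMM scaling, and the quasi-likelihood F test on all 6 libraries with no covariate, two-sided, Benjamini-Hochberg threshold 0.05 over all tested genes. SE is the absolute log2 fold change over the square root of F. For CPM and RPKM, TMM-scaled library sizes were used. On counts simulated for this comparison with 11957 genes in the test, 88% of genes changed 1.25-fold, 90% at 1.5-fold and 100% at 2-fold and 4-fold were recovered. The simulation had far fewer changed genes than the data, gave every gene the same dispersion and left genes with few counts unchanged. Recovery of genes with more spread or fewer counts was therefore not measured. The labels do not say whether libraries came from separate cultures, so p-values measure the spread between libraries, which may be technical; chi-square per degree of freedom between replicates was 1.89 to 3.28, so none looked deposited again.

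The 10 genes and the lists were chosen with earlier results of these data known. Named pathway genes were the 3 called genes per list with the largest change, a mean of at least 1 CPM and no overlap between groups; others are said to be named after their values were seen. Alternatives were DESeq2 1.42.0, RLE factors, library sizes alone, no count filter, a filter of 1 CPM in 3 libraries, blocking on replicate number, and each library left out in turn; for levels, also TPM. Some genes of the lists are not reported here.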

Additional observations from a re-analysis of the deposited data

How the results depend on the processing

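For 9 of the 10 genes, RPTOR excepted, direction and call were the same under all 12 alternatives. DEPTOR ranged from -3.85 to -3.70 on the log2 scale when each library was left out. RPTOR was -0.0016 with library sizes alone and 0.0827 to 0.133 with a library left out, losing its call without knockdown replicate 1. Of the 10 genes, 1 was called at 1.5-fold or more in the reported fit, 3 with library sizes alone and 2 without knockdown replicate 2. Library sizes alone shifted all log2 fold changes by -0.11, by the construction of that setting. Over 42 named pathway genes, neighbours and genes of like profile, 494 repeats kept their direction and call, 9 lost the call (PRR5, MAFF, NPRL3 and TAF2) and 1 gained it (MRPL13). The replicate numbers did not pair the libraries (correlations of deviations 0.04, -0.20 and -0.14 for replicates 1 to 3). With the replicate block 8759 genes were called against 9058, 89 pathway genes against 90, and all 10 of the 10. DEPTOR's 62 to 78 counts per knockdown library limit the precision of its remaining level.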
